A study of Mus musculus with 12 samples.

Results

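The 44 genes described here encode nuclear pore proteins, the LINC complex that bridges the nuclear membranes, the torsin system and the ESCRT proteins that close holes in the envelope. They were taken by gene symbol from a table of 24062 gene symbols, with no measured value in the rule, and all 44 had a row in it. The list holds 29 nucleoporins, 5 LINC genes, 3 torsin genes and 7 ESCRT genes and ESCRT partners. All 44 passed the filter on low counts in each comparison, so no member was lost to it.

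RNA-Seq was performed on hearts of 12 mice in 4 groups of 3. The adult groups, 2 months old, were Lemd2 WT mice and Lemd2 KI/KI mice, homozygous in every cell for the c.T38>G change, a missense change in the LEM domain. The groups at postnatal day 1 (P1) were Lemd2-floxed mice, whose first Lemd2 exon is flanked by loxP sites, and Lemd2 cKO mice, which carry the same floxed allele together with Myh6-Cre. This Cre is driven by the α-myosin heavy chain promoter and acts in cardiomyocytes, so the other cells of a cKO heart keep Lemd2. The P1 controls carry the floxed allele and the adult controls do not, so age cannot be told apart from allele, line or litter wherever adult WT and P1 floxed hearts are compared. RNA from heart tissue also cannot tell fewer cells of one type apart from less RNA in each cell.

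Nuclear pores are large channels built from many kinds of nucleoporin, arranged as outer Y complexes, an inner ring, membrane anchors, a central channel of flexible repeats, cytoplasmic filaments and a nuclear basket. LINC complexes join SUN proteins of the inner membrane to KASH proteins (nesprins) of the outer membrane and carry force from the cytoskeleton to the lamina, which matters in beating muscle. LEMD2 itself belongs to the repair side. It recruits CHMP7 to openings in the reforming or ruptured envelope, CHMP7 nucleates polymers of other ESCRT-III proteins, the ATPases VPS4A and VPS4B remodel them, and spastin cuts microtubules that cross the hole. Torsin-1A is an ATPase of the envelope lumen that needs an activator, LAP1 (Tor1aip1) or LULL1 (Tor1aip2).

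The promoters of 5 members called between adult and P1 hearts are shown as examples, Sun1 and Sun2 being higher in the adult and Nup62, Nup93 and Nup107 lower. The 5 are not the members with the largest differences. Nup210, Tor1aip1 and Tor1a differed more than Sun1, Nup62 and Nup107, and their promoters, not shown, held none of the sequences marked below. Each is the 250 bases before the annotated start, read 5′ to 3′ on the gene's strand from RefSeq (GRCm38.p6), and capitals mark exact matches, on either strand, to CCAAT (the letters bound by NF-Y), TTTGAA (a cell cycle element), TTTGGCGC or TTTCGCGC (E2F letters) and GCATGCGC (an NRF1 core). The windows are chr5:139200387-139200636 (plus strand), chr15:79742537-79742786 (minus strand), chr7:44815838-44816087 (plus strand), chr8:94214314-94214563 (plus strand) and chr10:117792706-117792955 (minus strand).
Sun1: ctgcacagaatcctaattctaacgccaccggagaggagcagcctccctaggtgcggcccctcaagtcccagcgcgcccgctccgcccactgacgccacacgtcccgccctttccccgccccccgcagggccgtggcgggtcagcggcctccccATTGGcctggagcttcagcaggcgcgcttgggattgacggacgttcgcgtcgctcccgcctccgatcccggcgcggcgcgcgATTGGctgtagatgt
Sun2: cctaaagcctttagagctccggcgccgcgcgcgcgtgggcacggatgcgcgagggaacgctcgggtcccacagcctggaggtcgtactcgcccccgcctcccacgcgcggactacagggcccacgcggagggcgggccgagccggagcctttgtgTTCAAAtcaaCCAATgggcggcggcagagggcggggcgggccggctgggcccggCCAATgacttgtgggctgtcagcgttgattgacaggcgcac
Nup62: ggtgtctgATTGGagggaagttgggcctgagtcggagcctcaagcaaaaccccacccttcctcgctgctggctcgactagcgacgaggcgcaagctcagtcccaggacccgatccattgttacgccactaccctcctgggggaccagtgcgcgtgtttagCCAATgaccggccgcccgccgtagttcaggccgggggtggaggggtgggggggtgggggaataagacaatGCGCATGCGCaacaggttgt
Nup93: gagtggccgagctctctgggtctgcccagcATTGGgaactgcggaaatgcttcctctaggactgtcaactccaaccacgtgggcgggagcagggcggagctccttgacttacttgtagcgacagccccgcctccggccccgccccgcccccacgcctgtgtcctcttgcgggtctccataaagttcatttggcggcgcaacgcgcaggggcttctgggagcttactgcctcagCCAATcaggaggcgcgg
Nup107: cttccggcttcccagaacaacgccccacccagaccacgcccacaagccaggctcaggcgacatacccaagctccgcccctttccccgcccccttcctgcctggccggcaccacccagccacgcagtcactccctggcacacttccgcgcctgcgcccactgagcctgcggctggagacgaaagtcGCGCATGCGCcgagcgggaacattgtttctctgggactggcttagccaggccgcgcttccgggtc
Of these sequences, those of Sun1, Sun2, Nup62 and Nup93 held CCAAT, that of Sun2 also held TTTGAA, and those of Nup62 and Nup107 held GCATGCGC, whose matches on both strands overlap each other. A promoter entry was found for 39 of the 44 members. CCAAT stood in 13 of the 39 (33.3%), against 34.5% of all 27025 promoters of the table. TTTGAA stood in 7 (17.9%), against 16.3% of all. GCATGCGC stood in 4 (10.3%), those of Chmp2a, Nup107, Nup50 and Nup62, against 2.31% of all. Neither E2F sequence stood in any of the 39, against 0.681% of all. A match is a description of letters and not a bound site.

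Library totals ran from 37063669 to 44789753 counts, and 3 counts, taken as the floor, corresponded to between 0.0603 and 0.0962 CPM (counts scaled to an equal library size with TMM factors), far below the lowest member value of 2.05 CPM. Every cardiomyocyte marker was detected in every group, with the sum of the 7 markers between 82122 and 91805 CPM in WT, 60281 and 81783 in KI/KI, 47406 and 55066 in floxed and 40361 and 43776 in cKO hearts. Lung markers summed to 100.1 CPM in WT replicate 3 and to between 0.513 and 0.549 CPM in the other WT hearts, and they reached 34.8 CPM in KI/KI replicate 4 and 42.9 CPM in floxed replicate 2. Of the 5 red cell markers, Hbb-bt and Hba-a1 were at 0 in every heart. In the cKO group, replicate 4 was the one heart without Y-linked transcripts and replicate 6 had the highest sum of dividing-cell markers. A fit with the Y-linked level as a covariate and fits without each library are given where they change a result.

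Lemd2, the targeted gene, was checked first. The 3 WT values were 31.9, 34.7 and 33.0 CPM, and the 3 KI/KI values were 25.6, 25.1 and 24.8 CPM, with no overlap. The log2 fold change was -0.39 (SE 0.06), a level of 0.761 times WT, with an adjusted p of 0.181 in edgeR's quasi-likelihood test and of 0.000384 in DESeq2. In the P1 hearts it was at 24.4, 25.1 and 25.3 CPM in floxed and at 6.64, 13.1 and 11.3 CPM in cKO, a log2 fold change of -1.27 (SE 0.22, edgeR adjusted p 0.0142). The call was lost without floxed replicate 1 (adjusted p 0.0761) or floxed replicate 2 (adjusted p 0.0594), while the value stayed between -1.48 and -1.04 without any one heart. Every cKO heart was below every floxed heart, as the label of the cKO requires. The KI/KI label names a missense change, which the level of the transcript does not check.

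**Figure D1:**
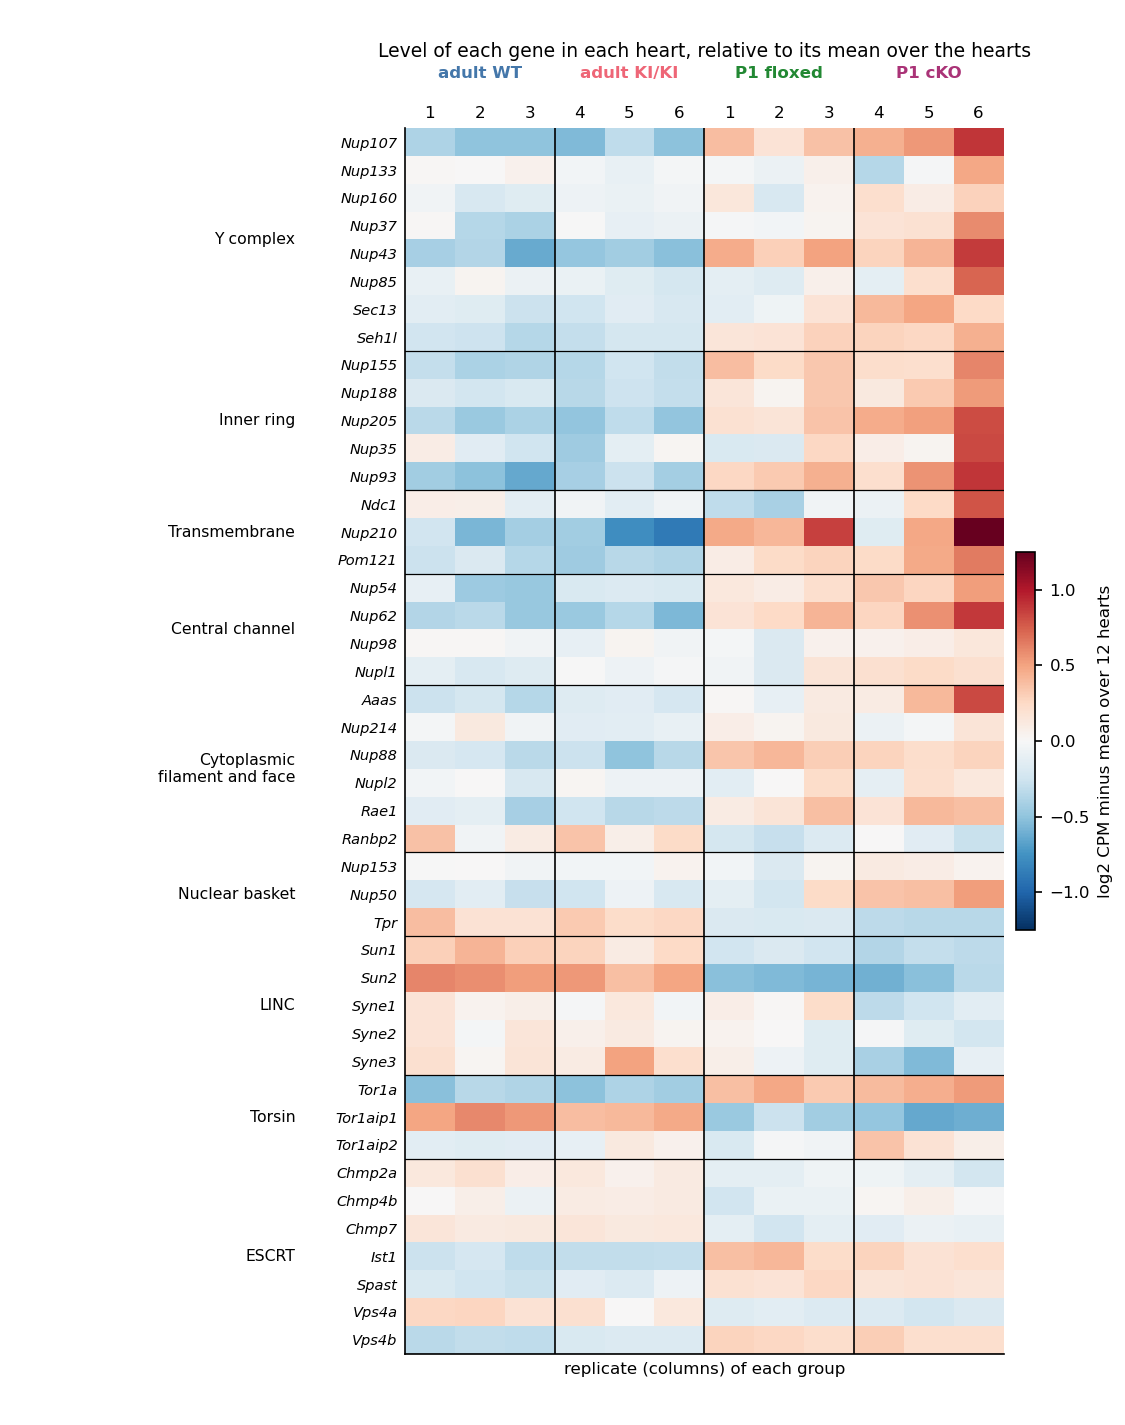
Level of the 44 genes (rows, grouped by role) in the 12 hearts (columns, with the replicate numbers of the labels), as log2 CPM minus the gene's mean over all hearts, red above and blue below it. Most nucleoporin rows change color between the adult and the P1 columns, Sun1, Sun2 and Tor1aip1 do so the other way, and the darkest red column is cKO replicate 6.

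Levels differed widely among the genes. Divided by the length of the merged exons of GENCODE vM21, the highest levels in WT hearts were those of Chmp2a, at 58.7 ± 2.29 CPM per kb (SD, n = 3), and Chmp4b, at 58.1 ± 2.87 CPM per kb, the ESCRT-III subunits that form the closing polymer. Their ranges overlapped. Tor1aip1 stood at 33.9 ± 1.24, Vps4a at 33.0 ± 1.07, Tpr at 29.9 ± 2.52 and Sun2 at 28.0 ± 0.891 CPM per kb. The lowest levels in WT hearts were those of Nup210, at 0.799 ± 0.0925 CPM per kb, and Nup35, at 0.778 ± 0.0973 CPM per kb. Chmp7 was at 9.87 ± 0.133 CPM per kb, below both of its downstream polymer subunits. The nesprin genes Syne1, Syne2 and Syne3 were at 4.81 ± 0.226, 4.66 ± 0.347 and 2.20 ± 0.139 CPM per kb. In P1 floxed hearts the order began with Chmp4b, at 52.8 ± 3.25 CPM per kb, and Chmp2a, at 49.8 ± 1.32 CPM per kb, and Sun2 had 12.9 ± 0.303 CPM per kb. Exon length is a union over transcripts, so the level per kb is too low for a gene whose longer isoforms are not expressed, and which isoforms of Syne1, with 40491 exonic bases, were expressed was not tested.

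In adult WT against P1 floxed hearts, 26 of the 44 genes were called at an adjusted p of 0.05 (edgeR), with 8 of them higher and 18 lower in the adult. Over all 15183 genes tested the same rule called 31.8% higher and 33.4% lower, and 18.2% and 40.9% of the members were called. The median log2 difference was -0.14 over the members and -0.04 over all genes tested, and the members' median was -0.04 without floxed replicate 3. With a fold change above 2 as a further condition, 1 member was higher (Sun2, against 13.4% of all genes) and 1 lower (Nup210, against 13.9%). With library totals alone as the scale, in place of TMM factors, the median of all genes in this comparison moved to -0.44 and the members split into 2 called higher and 35 lower. On that scale Sun2 and Tor1aip1 were the members still called higher. Measured from that median, all 26 called genes kept their direction, but measured from 0, Chmp7, Vps4a, Ranbp2 and Chmp2a turned to values below 0, and Sun1, Tpr and Lemd2 stayed above 0 without passing.

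Sun1 and Sun2, the SUN genes among the members, were higher in adult hearts. Sun2, whose protein anchors nesprins in the inner membrane, measured 156, 153 and 147 CPM in WT and 71.6, 70.0 and 68.3 CPM in floxed hearts. Every adult heart was above every floxed heart, and the log2 difference was 1.12 (SE 0.06, adjusted p 2.91e-06), 2.17-fold. Sun1, its partner with a wide overlap in function, was at 91.2, 99.1 and 90.6 CPM in WT and at 62.9, 65.3 and 62.9 CPM in floxed hearts, a log2 difference of 0.55 (SE 0.06, adjusted p 0.000140). The ratio of Sun2 to Sun1 was between 1.54 and 1.71 in WT and between 1.07 and 1.14 in floxed hearts. No nesprin gene among the members passed with TMM factors. Of 8 other LINC and envelope genes tested, 4 were called higher and 3 lower, beside 31.8% and 33.4% of all genes. The nesprin gene Syne4 and Sun3 were among the lower. Their mean levels were 0.302 and 0.478 CPM in WT and 0.770 and 1.53 CPM in floxed hearts. Syne1, the giant nesprin-1 of muscle nuclei, differed by -0.02 (SE 0.08, adjusted p 0.833) and Syne2 by 0.13 (SE 0.08, adjusted p 0.208) on the log2 scale. With library totals as the scale both were called lower, at -0.42 (adjusted p 0.000738) and -0.28 (adjusted p 0.0361), where the median of all genes was -0.44.

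The torsin genes moved apart. Tor1aip1, which encodes the inner membrane activator LAP1, was at 177, 190.1 and 183 CPM in WT and at 90.7, 104 and 93.0 CPM in floxed hearts, a log2 difference of 0.93 (SE 0.07, adjusted p 1.85e-05). Tor1a, which encodes the torsin ATPase itself, was at 8.43, 9.55 and 9.33 CPM in WT and at 15.7, 16.9 and 15.2 CPM in floxed hearts, a log2 difference of -0.81 (SE 0.10, adjusted p 0.000206). The groups did not overlap for either gene. Tor1aip2, the activator of the endoplasmic reticulum, did not pass, with a log2 difference of -0.07 (SE 0.07, adjusted p 0.417).

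Of the 29 nucleoporin genes, 14 were lower and 2 higher in adult hearts, and 13 did not pass, beside 33.4% of all genes called lower and 31.8% higher. Their median log2 difference was -0.24, and it was -0.14 without WT replicate 3. The inner ring, the scaffold that lines the channel, had 4 of 5 genes lower and the fifth, Nup35, was at -0.08 (SE 0.20, adjusted p 0.733). Nup93, which holds the inner ring together, was at 26.8, 25.5 and 23.4 CPM in WT and at 43.6, 45.6 and 49.5 CPM in floxed hearts. Every adult value lay below every floxed value, and the log2 difference was -0.88 (SE 0.08, adjusted p 5.21e-05). Nup155 was lower by a log2 value of -0.68 (SE 0.07, adjusted p 8.37e-05) and Nup205 by -0.64 (SE 0.08, adjusted p 0.000219).

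Among the membrane anchors, Nup210, a transmembrane nucleoporin known from muscle and nerve cell differentiation, had the largest fall of all members. It was at 9.40, 7.47 and 8.24 CPM in WT and at 15.4, 14.8 and 20.0 CPM in floxed hearts, a log2 difference of -1.01 (SE 0.16, adjusted p 0.000650), 0.498 times the P1 level. Of the Y complex genes, which build the outer rings, 3 of 8 were lower and none higher, beside 33.4% and 31.8% of all genes. Nup43 differed by -0.90 (SE 0.13, adjusted p 0.000404). Nup107 was at 19.4, 17.8 and 17.9 CPM in WT and at 33.1, 28.5 and 32.6 CPM in floxed hearts, a log2 difference of -0.78 (SE 0.09, adjusted p 0.000150). In the central channel, Nup62, a repeat nucleoporin of the transport path, differed by -0.68 (SE 0.09, adjusted p 0.000306), and 2 of 4 genes were lower. The Nup62 promoter, like those of Nup93 and Sun2 above, held CCAAT. Whether these letters go with the direction of a difference was not tested. At the cytoplasmic face 3 of 6 genes were lower, Nup88 the farthest with -0.60 (SE 0.07, adjusted p 0.000102). The 6 other nucleoporins called lower (Nup54, Nup188, Seh1l, Pom121, Aaas and Rae1) lay between -0.49 and -0.30, and of these Aaas lost its call in DESeq2 and in the fits without any one heart other than floxed replicate 2.

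The 2 nucleoporins called higher belong to the nuclear basket and the cytoplasmic filaments, although 3 of 6 genes of the cytoplasmic face were lower. The membrane anchor Ndc1 lay at 0.25 (SE 0.12, adjusted p 0.0991) and was called higher without floxed replicate 3. Tpr, the coiled-coil protein of the nuclear basket, was at 344, 298 and 299 CPM in WT and at 233, 231 and 233 CPM in floxed hearts, a log2 difference of 0.43 (SE 0.08, adjusted p 0.00137). Ranbp2, the main protein of the cytoplasmic filaments, was at 194, 146 and 162 CPM in WT and at 130, 123 and 134 CPM in floxed hearts, a log2 difference of 0.37 (SE 0.11, adjusted p 0.0146). The Ranbp2 groups did not overlap, yet WT replicate 1 was far above the other adult hearts, and without floxed replicate 2 the adjusted p was 0.0529. With library totals as the scale Ranbp2 lay at -0.03, above the median of all genes at -0.44.

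The 7 ESCRT genes split 3 higher and 3 lower, beside 31.8% of all genes called higher and 33.4% lower. With library totals as the scale all 6 called genes kept their direction relative to the median of all genes. The 3 higher ones then lay below 0 but above that median. Chmp7, the partner of LEMD2, was at 63.1, 61.5 and 61.9 CPM in WT and at 52.2, 48.1 and 52.2 CPM in floxed hearts. That was a log2 difference of 0.29 (SE 0.07, adjusted p 0.00534). Lemd2 differed the same way, by 0.41 (SE 0.07, adjusted p 0.00139). Vps4a, an ATPase that takes ESCRT-III polymers apart, was higher by 0.38 (SE 0.06, adjusted p 0.000632), and its paralog Vps4b was lower by a log2 value of -0.57 (SE 0.06, adjusted p 6.94e-05). Ist1, which regulates VPS4 and spastin recruitment, was at 59.4, 62.1 and 57.6 CPM in WT and at 93.2, 95.3 and 84.2 CPM in floxed hearts, a log2 difference of -0.61 (SE 0.07, adjusted p 0.000128). Spast was lower by a log2 value of -0.45 (SE 0.06, adjusted p 0.000404). Chmp2a was higher by 0.23 (SE 0.06, adjusted p 0.0120), and its adjusted p was 0.0512 without WT replicate 2.

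**Figure D2:**
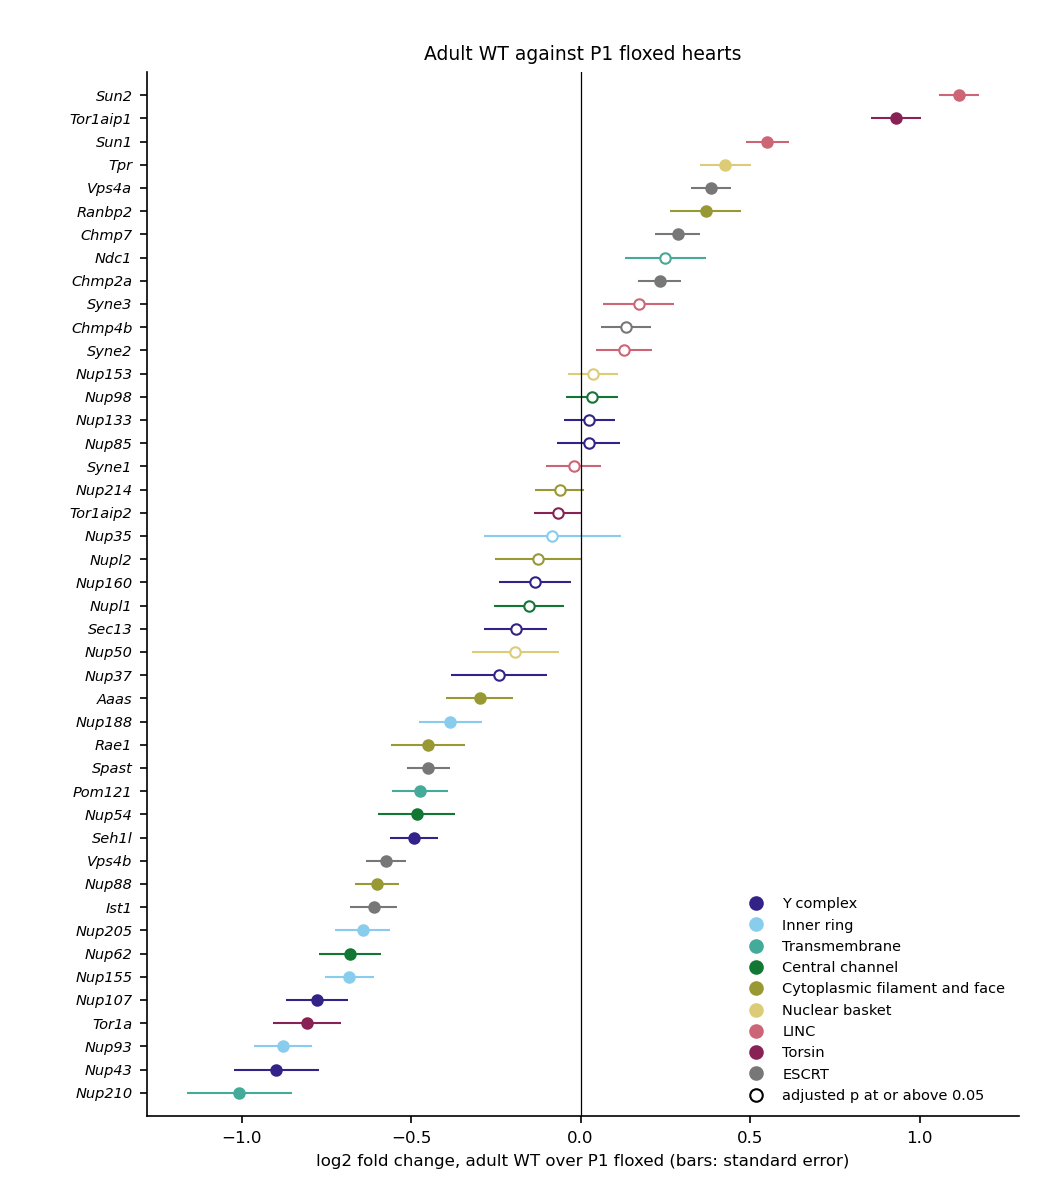
Log2 fold change of each of the 44 genes in adult WT over P1 floxed hearts (x axis, bars show the standard error), colored by role, filled where the edgeR adjusted p was under 0.05. Sun2 lies farthest to the right at 1.12 and Nup210 farthest to the left at -1.01, and 14 filled nucleoporin points lie left of 0 against 2 right of it.

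Markers of dividing cells differed with age by far more than the pore genes did. The sum of the 8 markers was between 87.5 and 155 CPM in WT and between 323 and 445 CPM in floxed hearts. In the adult 7 of the 8 genes were lower and 1 higher, Cenpf, with a log2 difference of 1.19. The median log2 difference of the 8 was -3.52. The sum of the cardiomyocyte markers was higher in adult hearts, between 82122 and 91805 CPM beside 47406 to 55066 CPM in floxed hearts. The part of these marker differences in the pore and LINC results was not tested. Of 75 other genes of the same pathways that were tested (pore accessories, transport factors, other LINC, torsin and ESCRT genes), 29 were higher and 21 lower, with a median of 0.08. Among the 31 transport factors 11 were higher and 10 lower. Over all genes tested 31.8% were called higher and 33.4% lower, and the transport counts lie near those shares.

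In P1 cKO hearts, most pore genes lay slightly above their controls, but single genes hardly passed the test. Against floxed hearts, 0 of the 44 genes were called higher and 1 lower in cKO hearts, where edgeR called 9.32% of 15317 genes higher and 7.57% lower. At an unadjusted p under 0.05, 8 members were higher (Aaas, Ndc1, Nup107, Nup205, Nup50, Nup54, Sec13 and Tor1aip2), against 18.5% of all genes, and 2 lower (Syne1 and Tpr), against 16.2%. DESeq2 called 4 higher (Ndc1, Nup205, Nup50 and Sec13), against 13.6% of all genes, and 1 lower (Syne1), against 11%. The groups did not overlap for 11 members higher in cKO, against 20.5% of all genes, and for 4 lower (Sun1, Syne1, Tor1aip1 and Tpr), against 19.3%. As shares of the 44 members, these were 18.2% and 4.55% at the unadjusted p, 9.09% and 2.27% in DESeq2, and 25% and 9.09% without overlap, none far above the share of all genes. The number of genes called in this comparison depended on single libraries: it fell from 1427 higher and 1160 lower to 86 and 74 without floxed replicate 1, 303 and 365 without floxed replicate 2 and 320 and 222 without cKO replicate 5.

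Syne1 was the gene called. It spans chr10:5020917-5551482 of GRCm38 on the minus strand, with 147 merged exons in the annotation. It was at 192, 185 and 214 CPM in floxed and at 145, 154 and 166 CPM in cKO hearts, with every cKO heart below every floxed heart. The log2 fold change was -0.35 (SE 0.08, adjusted p 0.0350), 0.786 times the floxed level. The call rested on the full set of hearts: it was kept without cKO replicate 6 (adjusted p 0.0237) and lost when any of the other 5 hearts was left out, with an adjusted p of up to 0.134 and log2 values between -0.40 and -0.29. It was also lost with the Y-linked level as a covariate (adjusted p 0.0876).

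The other LINC genes did not pass. Sun1 was at 62.9, 65.3 and 62.9 CPM in floxed and at 57.3, 60.0 and 59.2 CPM in cKO hearts, a log2 fold change of -0.12 (SE 0.07, adjusted p 0.253) without overlap. Sun2 differed by 0.06 (SE 0.08, adjusted p 0.610), and this value was -0.01 without cKO replicate 6. Syne2 differed by -0.10 (SE 0.10, adjusted p 0.500). Syne3, a nesprin that binds intermediate filaments through plectin, was the second lowest of the LINC genes at -0.30, yet its groups overlapped (SE 0.15, adjusted p 0.193).

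Of the 29 nucleoporin genes, 26 had a log2 fold change above 0 in cKO hearts, with a median of 0.19, where 49.6% of all genes tested were above 0 and their median was -0.00. All 8 Y complex, 5 inner ring, 3 transmembrane and 4 central channel genes were above 0, and the 3 exceptions, Nup88, Nup214 and Tpr, belong to the ends of the pore. No nucleoporin passed, and the count is of direction only. With library totals as the scale 23 of 29 were above 0. Without cKO replicate 6 it was 22 of 29, with a median of 0.12 beside -0.03 for all genes. Without floxed replicate 2 it was 24 of 29, with a median of 0.10 beside -0.01 for all genes.

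Sec13, shared by the Y complex and the COPII coat of secretory vesicles, came closest to a call, with an adjusted p that rounded to the limit of 0.05 and lay just above it. It was at 70.4, 74.4 and 86.3 CPM in floxed and at 102, 109 and 91.4 CPM in cKO hearts, a log2 fold change of 0.39 (SE 0.11) without overlap. Sec13 was called without cKO replicate 6 (adjusted p 0.0238) or floxed replicate 3 (adjusted p 0.0439), and its adjusted p was up to 0.202 without other hearts. Nup50, a basket nucleoporin that helps importins release cargo, was at 33.4, 30.9 and 42.7 CPM in floxed and at 46.5, 46.9 and 52.1 CPM in cKO hearts, a log2 fold change of 0.44 (SE 0.13, adjusted p 0.0560). Without floxed replicate 3, the highest Nup50 value of its group, the adjusted p was 0.0232. Ndc1, a membrane anchor, had the largest value of the members, 0.60 (SE 0.21, adjusted p 0.0962), 1.52-fold. It was at 17.8, 16.7 and 21.6 CPM in floxed and at 21.0, 26.4 and 38.3 CPM in cKO hearts, so that the lowest cKO heart lay under the highest floxed heart. Ndc1 was called without cKO replicate 4 (adjusted p 0.0444), and its value was 0.34 without cKO replicate 6.

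Aaas, whose protein ALADIN is anchored to the pore by NDC1, was at 15.5, 14.3 and 16.6 CPM in floxed and at 16.5, 20.3 and 27.2 CPM in cKO hearts, a log2 fold change of 0.46 (SE 0.18, adjusted p 0.118). The groups were apart when only the 6 P1 hearts were scaled, and the lowest cKO value fell just under the highest floxed value when all 12 were. Nup205, named after its values were seen, was at 58.3, 57.4 and 65.6 CPM in floxed and at 70.5, 72.8 and 90.0 CPM in cKO hearts, a log2 fold change of 0.36 (SE 0.11, adjusted p 0.0607). Nup62 differed by 0.31 (SE 0.15, adjusted p 0.193) and Nup35 by 0.36 (SE 0.26, adjusted p 0.359). Without cKO replicate 6 these values were 0.14 for Nup62, 0.08 for Nup35 and 0.25 for Aaas. Nup35 was at 2.45, 2.47 and 3.33 CPM in floxed and at 2.96, 2.86 and 4.93 CPM in cKO hearts. For Ndc1, Aaas, Nup35, Nup62 and Nup205 the highest of the 6 hearts was cKO replicate 6.

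**Figure D3:**
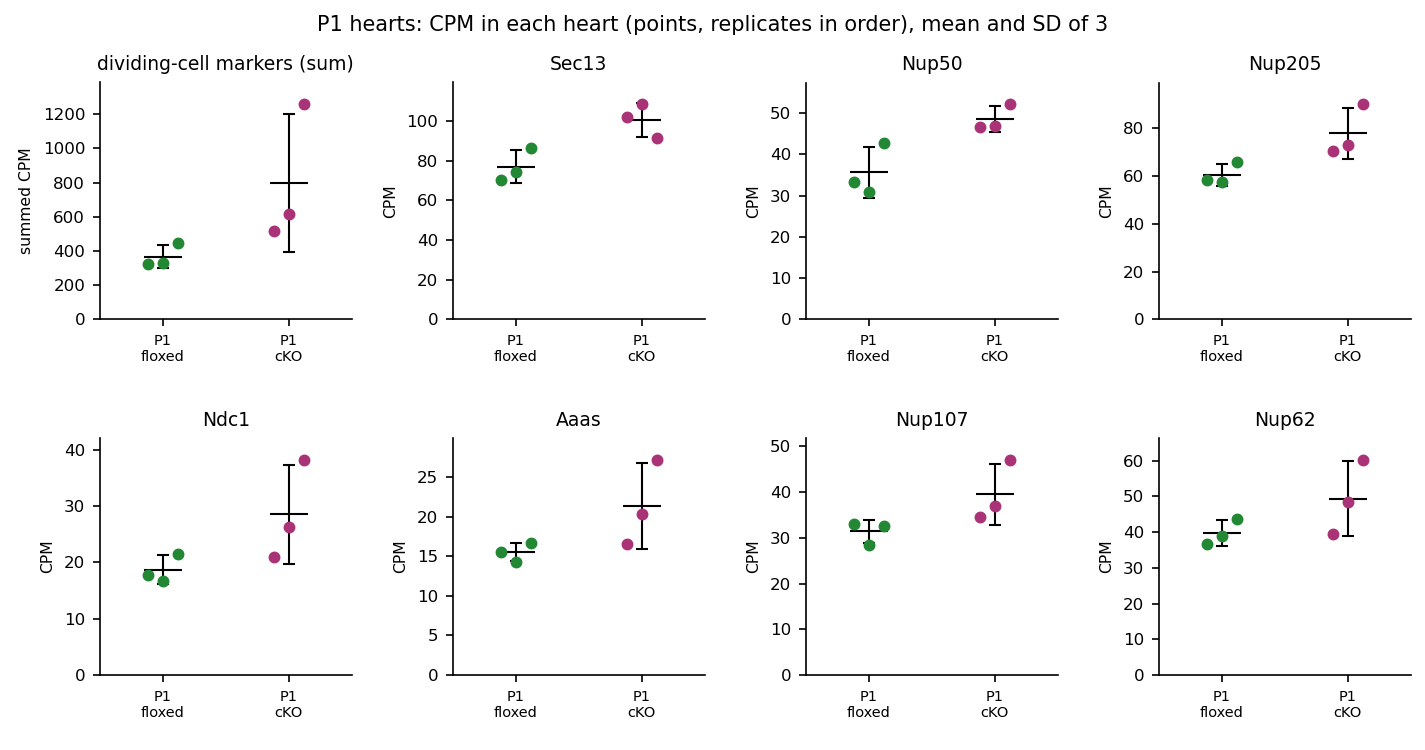
Summed CPM of 8 dividing-cell markers and CPM of 7 pore genes in each P1 heart (points, replicates 1 to 3 for floxed and 4 to 6 for cKO from left to right), with the mean and SD of 3 hearts and axes from 0. In the marker panel and in every gene panel except that of Sec13, cKO replicate 6 is the highest point.

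The dividing-cell markers were also above their controls in cKO hearts. Their sum was at 323, 332 and 445 CPM in floxed and at 517, 619 and 1259 CPM in cKO hearts, highest in cKO replicate 6, the heart in which Sec13 was lowest of the cKO group. All 8 markers had log2 fold changes above 0, with a median of 1.16, and 3 passed (Ccnb1, Cdk1 and Bub1). Fibroblast markers summed to between 2672 and 3023 CPM in floxed and between 3246 and 3833 CPM in cKO hearts. The genes of that list did not move together. Their log2 fold changes were 0.56 for Col1a1, 0.37 for Col1a2 and 1.05 for Tcf21, but -0.16 for Pdgfra, -0.14 for Dcn and -0.16 for Lum. The sum of the cardiomyocyte markers was lower in cKO (40361 to 43776 CPM, beside 47406 to 55066 CPM), although Actc1 lay at 0.22. The part of all these markers in the pore gene values was not tested.

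Some genes of the transport machinery that uses the pore were called in cKO hearts, and whether they differed from the pore genes was not tested. Of 76 other genes of the same pathways tested, 9 were higher and none lower, with a median of 0.12. For the whole list this was near the 9.32% of all genes called higher, and 7.57% of all genes were called lower. For the 31 transport genes alone, the 7 called higher were a larger share than 9.32%. The 9 were the pore-associated SUMO protease gene Senp2, the ESCRT adaptor gene Pdcd6ip, and 7 of the 31 transport genes: Kpna2, Kpna4, Ipo4 and Ipo5 (importins) and Ran, Rangap1 and Ranbp1 (the Ran GTPase and its regulators). Rangap1 had a log2 fold change of 1.21 (SE 0.24, adjusted p 0.0210), Kpna2 of 0.93 (SE 0.26, adjusted p 0.0491) and Ran of 0.71 (SE 0.13, adjusted p 0.0162). For Pdcd6ip, which encodes ALIX, it was 0.37 (SE 0.07, adjusted p 0.0154). Rangap1 was at 162 CPM in cKO replicate 6, the heart with the highest dividing-cell sum, beside 80.9 and 98.5 CPM in the other cKO hearts. Kpna2 was at 95.1 CPM in cKO replicate 6, beside 58.8 and 57.2 CPM. In the test of the difference between models, Ran (0.81, adjusted p 0.0338) and Pdcd6ip (0.33, adjusted p 0.0473) passed as well. The lists were drawn up with earlier results of these hearts known.

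No ESCRT member passed in cKO hearts. Chmp7 was at 52.2, 48.1 and 52.2 CPM in floxed and at 51.4, 54.1 and 53.3 CPM in cKO hearts. Its log2 fold change of 0.06 (SE 0.07, adjusted p 0.600) was within the spread between hearts. The farthest of the 7 was Chmp4b, at 0.16 (SE 0.08, adjusted p 0.172), whose cKO hearts were all above the floxed hearts. The other 6 lay between -0.12 and 0.06.

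In adult KI/KI hearts no member was called. edgeR called 0% of 14592 genes in either direction, so the absence of calls is not particular to the members. The log2 fold changes of the members ran from -0.28 to 0.18, with a median of -0.01 beside 0.00 for all genes, and their standard errors were 0.05 to 0.18. At an unadjusted p under 0.05, 3 members were higher (Nupl1, Tor1aip2 and Vps4b), against 8.92% of all genes, and 0 lower, against 7.28%. DESeq2 called 0 members, where it called 2.1% of genes higher and 1.46% lower. The groups did not overlap for 7 members higher in KI/KI, against 11.5% of all genes, and for 5 lower, against 11%.

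Vps4b had the smallest p of the members. It was at 54.7, 55.9 and 55.4 CPM in WT and at 60.6, 61.2 and 61.1 CPM in KI/KI hearts, a log2 fold change of 0.15 (SE 0.05, adjusted p 0.255) without overlap. Spast, the gene of spastin, was at 56.2, 53.9 and 53.0 CPM in WT and at 58.0, 57.0 and 61.4 CPM in KI/KI hearts, a log2 fold change of 0.12 (SE 0.05, adjusted p 0.328). Chmp4b was at 118, 124 and 112 CPM in WT and at 126, 126 and 127 CPM in KI/KI hearts, a log2 fold change of 0.11 (SE 0.05, adjusted p 0.363). Chmp7 differed by 0.01 (SE 0.05, adjusted p 0.906), with all 6 hearts between 61.5 and 63.3 CPM.

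The LINC genes of adult hearts did not pass either. Sun1 was at 91.2, 99.1 and 90.6 CPM in WT and at 89.5, 79.2 and 88.2 CPM in KI/KI hearts, a log2 fold change of -0.12 (SE 0.07, adjusted p 0.393), with the groups just apart. Sun2 was at 156, 153 and 147 CPM in WT and at 149, 133 and 145 CPM in KI/KI hearts, a difference of -0.09 (SE 0.06, adjusted p 0.473). The lowest Sun1 and Sun2 values were those of KI/KI replicate 5, the heart with the lowest sum of cardiomyocyte markers (60281 CPM) and the highest sum of fibroblast markers (2713 CPM, beside 1488 to 1708 CPM in WT), and the part of these markers was not tested. The log2 fold change was -0.06 for Syne1 (SE 0.07, adjusted p 0.677) and -0.03 for Syne2 (SE 0.07, adjusted p 0.877). Of the nucleoporins, 14 of 29 were above 0. Nup93 differed by 0.17 (SE 0.08, adjusted p 0.347), Nupl1 by 0.14 (SE 0.06, adjusted p 0.300) and Nup214, a cytoplasmic face nucleoporin, by -0.14 (SE 0.06, adjusted p 0.330). In the annotation 48.75% of the exonic length of Nupl1 is shared with another gene annotated on the same strand, so its count is uncertain.

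**Figure D4:**
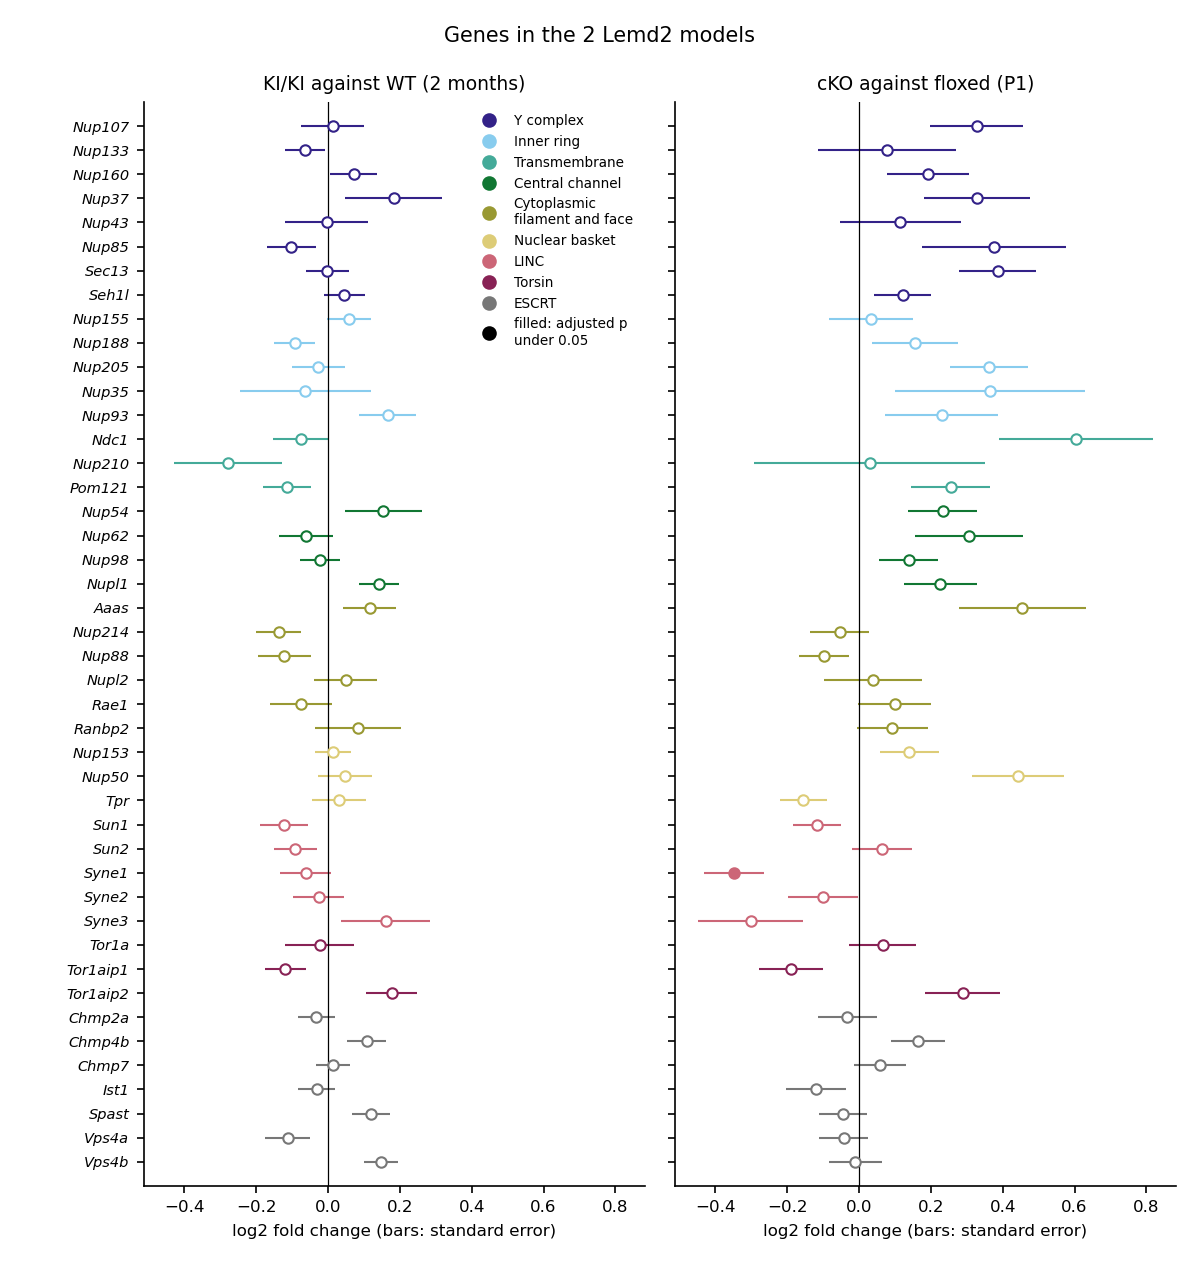
Log2 fold change of the 44 genes (rows, by role) in KI/KI against WT hearts (left) and in cKO against floxed hearts (right), with standard error bars and a filled point where the edgeR adjusted p was under 0.05. Syne1 in cKO, at -0.35, is the filled point, and in the right panel 26 of 29 nucleoporins lie above 0.

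A pair of neighboring genes had values on opposite sides of 0 in both models, without a call in either. Tor1aip1 and Tor1aip2 lie on chromosome 1 of GRCm38 on opposite strands, at 156004599 to 156036480 (minus) and 156035403 to 156068861 (plus), so that their 5′ ends overlap and 699 exonic bases are shared. In adult hearts Tor1aip2 was at 116, 114 and 115 CPM in WT and at 119, 138 and 132 CPM in KI/KI, a log2 fold change of 0.18 (SE 0.07, adjusted p 0.298). Tor1aip1 was at 177, 190.1 and 183 CPM in WT and at 164, 166 and 174 CPM in KI/KI, a log2 fold change of -0.12 (SE 0.06, adjusted p 0.359). Neither group pair overlapped. In P1 hearts Tor1aip2 was at 111, 126 and 123 CPM in floxed and at 163, 144 and 134 CPM in cKO, a log2 fold change of 0.29 (SE 0.10, adjusted p 0.0993), and Tor1aip1 differed by -0.19 (SE 0.09, adjusted p 0.180), again with no overlap. Without cKO replicate 6 Tor1aip2 was called (0.35, adjusted p 0.0389).

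The number of Tor1aip2 counts per Tor1aip1 count was between 0.600 and 0.656 in WT and between 0.723 and 0.834 in KI/KI hearts, and between 1.22 and 1.33 in floxed and between 1.62 and 1.82 in cKO hearts. Neither gene passed in either model, and the ratio was chosen after the values were seen, so it carries no test. The strand setting of the read counting is not given in the sources used here, and reads from the shared bases cannot be assigned to one gene without it.

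**Figure D5:**
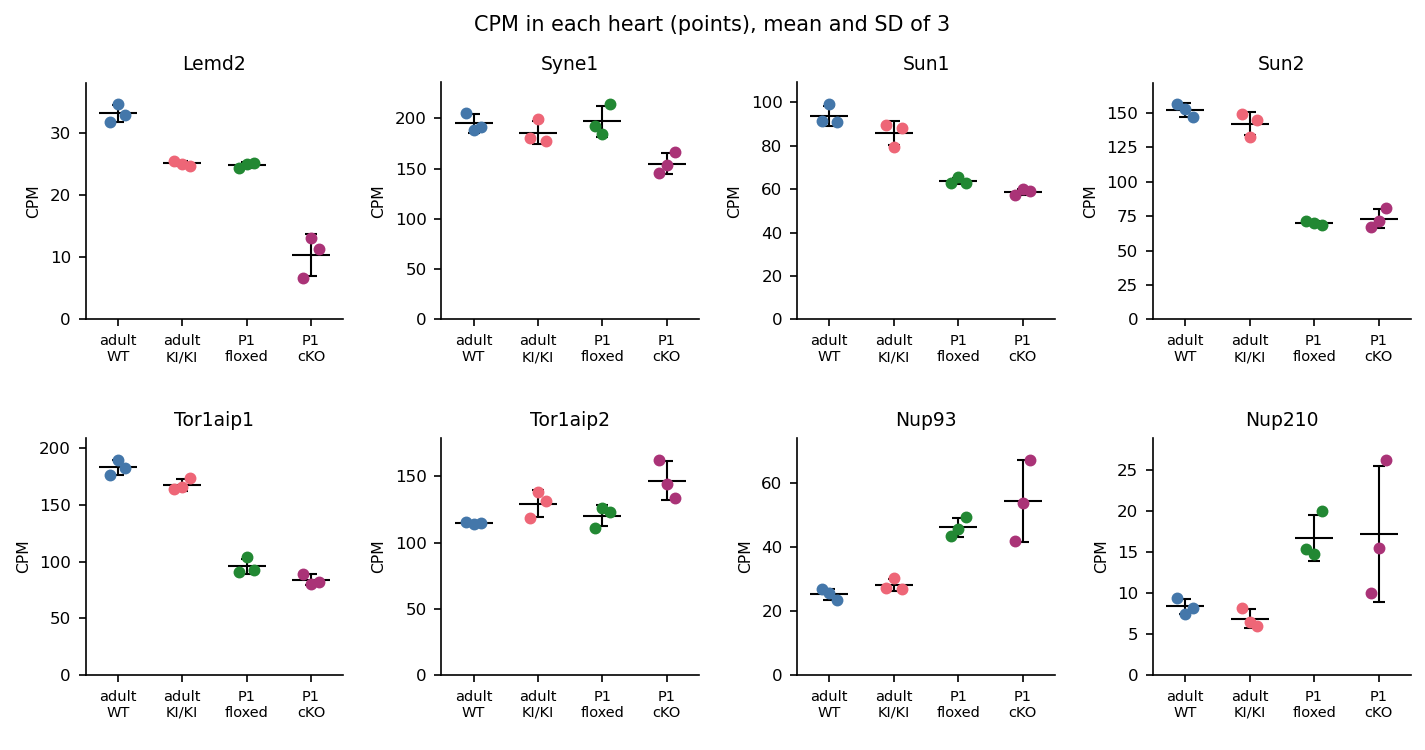
CPM of Lemd2 and 7 members in each of the 12 hearts (points), with the mean and SD of 3 hearts per group and axes from 0. Sun1, Sun2 and Tor1aip1 are higher in both adult groups than in both P1 groups, Nup93 is lower, and the Syne1 points of cKO hearts lie below those of floxed hearts.

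Whether the change differed between the models was tested as an interaction over all 12 hearts. edgeR called 2.43% of 15729 genes and no member. At an unadjusted p under 0.05 it was 7 members (Ndc1, Nup205, Nup50, Pom121, Sec13, Syne1 and Syne3), against 20% of all genes, and DESeq2 called 1 (Sec13, adjusted p 0.0444), against 9.13%. The smallest adjusted p of a member in edgeR was that of Sec13, 0.118, with a cKO minus KI/KI difference in log2 fold change of 0.39 (SE 0.13). For Syne1 the difference was -0.28 (SE 0.12, adjusted p 0.210). With library totals as the scale the median of all genes in this contrast moved from -0.01 to -0.15, and 17 rather than 34 of the 44 members lay above 0, while the median of the members moved with it, from 0.09 to -0.05. The models also differ in age, allele and the cells affected, which cannot be told apart here.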

How the data were processed

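RNA came from cardiac samples of 3 separate mice a group. Adapters were trimmed by the authors with Trim Galore, STAR 2.7.2b did the alignment to mm10, and HTSeq assigned reads to genes. The values deposited are raw counts, whole numbers with no normalization. The HTSeq strand setting is not given in the sources used here, which leaves reads from overlapping genes on opposite strands uncertain. No pair of replicates held identical counts.

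Tests were run with edgeR 4.0.16 (R 4.3.3) on the libraries compared, using TMM factors, filterByExpr and robust quasi-likelihood fits, and p-values were adjusted by Benjamini-Hochberg over all genes tested. The difference between models was an interaction over 12 libraries. Standard errors came from the fold change and its test statistic. CPM values use TMM factors over all 12 hearts, while overlap of groups was judged on the hearts of the comparison. Alternatives used DESeq2 1.42.0, limma-voom (limma 3.58.1), other scalings, filters and dispersions and a Y-linked covariate, and left out each library. The legacy dispersion was added after seeing the data. Scripts were tested on simulated counts.

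The members and lists were chosen with earlier results of these data known. Named genes are Lemd2, Chmp7, Sun1, Sun2, Syne1 and Syne2, the 8 called members with the largest change in each direction and the farthest member of each role. With no member called, they are the 8 with the smallest p among those without overlap. Other members named beside counts or as examples were chosen after their values were seen. Floors cover counting error only. Positions are those of GENCODE vM21 (GRCm38), and promoters those of RefSeq.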

Additional observations from a re-analysis of the deposited data

How the results depend on the processing

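In cKO against floxed hearts, the main analysis called 0 members higher, and this became 4 with DESeq2, 6 with all 12 libraries in one fit, and 1 each with at least 10 counts in every library, with a non-robust dispersion and with the Y-linked covariate. The 1 member called lower, Syne1, became 0 with the Y-linked covariate and with a fold change above 2. With each library left out in turn, members called ranged from 0 to 2 higher and from 0 to 1 lower. In adult WT against P1 floxed hearts, library totals alone gave 2 higher and 35 lower, and a fold change above 2 gave 1 and 1. Library totals alone, which moved the age median of all genes from -0.04 to -0.44, also turned the sign of log2 values: in KI/KI hearts Syne1 (0.016) and Syne2 (0.049), in cKO hearts Chmp7 (-0.0068), and with age Chmp7 (-0.12), Syne2 (-0.28), Vps4a (-0.021), Ranbp2 (-0.034) and Chmp2a (-0.17), of which Chmp7, Vps4a, Ranbp2 and Chmp2a had been called higher, and Chmp2a and Syne2 then passed as lower. Relative to that median all 26 members called with age kept their direction. Syne1 with age was -0.42 and called with library totals (adjusted p 0.000738), 0.0094 with DESeq2 and 0.0060 with RLE size factors. Over the left-out libraries, Syne2 in KI/KI hearts ranged from -0.090 to 0.0067, Sun2 in cKO hearts from -0.013 to 0.11 and Syne1 with age from -0.073 to 0.056. For the difference between models DESeq2 called 1 member, and leaving out libraries gave 0 to 2, the 2 being Nup50 and Sec13 without floxed replicate 3. No member was called in KI/KI hearts in any alternative run. Equal replicate numbers did not pair the adult WT and floxed hearts (correlations of deviations -0.237, -0.288 and -0.537). With a replicate block, 8 members were higher and 17 lower with age, Aaas being lost. Aaas was also lost with DESeq2, with all 12 libraries in one fit and without each library but floxed replicate 2. For the difference between the models the block called 0 members, where it called 0 of all 15729 genes tested. The cause of the other changes was not tested. Groups of 3 hearts and totals of 37063669 to 44789753 counts limit what could be seen, and a member missing the threshold is not shown to be equal between groups.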
